A study of Homo sapiens with 9 samples.

Results

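Peaks of open chromatin found by ATAC-seq were compared between 2 K562 lines: the parental line and a line heterozygous for the STAG2 mutation R614*, which puts a stop codon in place of an arginine. K562 is a human leukaemia line of erythroid and megakaryocytic character, and the parental cells, called wild type here, carry no STAG2 mutation per the labels. The mutant line, STAG2 R614* +/-, was edited with CRISPR-Cas9, and all of its libraries bear the name of 1 line, so genotype and line cannot be told apart. The series holds 9 libraries, 3 each of wild type, heterozygous and homozygous cells, from 50000 cells per replicate and single-end reads of 100 bp. The labels name no agent, no batch and no separate cultures, so the spread between replicates may be technical.

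The comparison used 4 of the 9 libraries: heterozygous replicates 2 and 3 and wild type replicates 1 and 2. Wild type replicate 3 and heterozygous replicate 1 were set aside because 46.0% of the shorter list's intervals were identical in the other, although their labels give different genotypes. Wild type replicates 1 and 2 also shared 23.1% of the shorter list, heterozygous replicates 2 and 3 shared 1.11%, and the 4 pairs across genotypes shared 0.279 to 0.315%. Chromosomes 5 to 9 and X were left out, because heterozygous replicate 2 had 29.8% of its intervals there and the other 3 libraries had 35.4 to 36.1%. From each library the 50000 intervals with the highest −log10 p on chromosomes 1 to 4 and 10 to 22 were taken. These strongest peaks were merged by an overlap of 1 bp into 81845 regions.

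STAG2 is a subunit of cohesin, a ring-shaped complex that holds sister chromatids together and extrudes chromatin into loops. Loops halt at CTCF, a zinc finger protein that binds a long motif, and STAG1 is the alternative to STAG2 in the ring. In ATAC-seq the Tn5 transposase inserts adapters into DNA that nucleosomes leave free, so peaks mark active promoters, enhancers and CTCF sites. In erythroid and megakaryocytic cells, enhancers are bound by GATA, RUNX, ETS, AP-1 and NFE2 factors. Peaks do not read the mutation itself. At the STAG2 start sites, on chromosome X outside the compared chromosomes, the highest −log10 p was 22.5 and 28.6 in heterozygous replicates 2 and 3, and 18.9 and 20.7 in wild type replicates 1 and 2. In the libraries set aside it was 28.7 in wild type replicate 3 and 28.7 in heterozygous replicate 1, so the genotypes as labelled overlapped there.

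Of the 81845 regions, 5198 (6.35%) had a strongest peak in both heterozygous libraries and in neither wild type library. The reverse pattern held for 8102 regions (9.9%), and 27379 (33.5%) were shared by all 4 libraries. These are shares of regions, and lists of genes are read below against shares over all promoters or all genes. An exact two-sided test of 2 libraries against 2 cannot go below 0.333, so no p is given for single regions.

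The windows printed here are 200 bp around the strongest summit, on the + strand of GRCh37, 5′ to 3′. Regions were ordered by the lower of their percentiles in the 2 libraries that have them (100 is the strongest of the 50000 peaks, 0 the weakest). The windows were chosen to show blood cell motifs where they occur, so they do not stand for all top regions. ZFP36L2 and LINC02725 were 1st and 3rd among heterozygous-only regions, and MC4R and NPHP4, ranked 20 and 25, were the first after the 4th with a CTCF or AP-1 motif, in both cases AP-1. The regions ranked 2 and 4, near PGA5 and in PARD3B, held 0 matches in this window and are not printed. MON1B, B4GALT6, CCDC178 and NELL2 were ranked 1, 3, 4 and 5 among wild-type-only regions. The region ranked 2, nearest ARAP2, held 1 GATA match in this window and is not printed either. Capitals mark motif matches on either strand. AP-1 was searched as TGANTCA and RUNX, bound by the factors that gave the motif its name, as TGTGGT. The letters searched for the motif of erythroid GATA factors were, in the direction in which it is usually written, AGATAA. The NFE2 consensus, searched too, contains an AP-1 match. For the heterozygous libraries these were an intergenic window 166890 bp from the nearest protein-coding start site, that of ZFP36L2 (chr2:43286752-43286951), an exon of the non-coding RNA LINC02725 (chr11:128052772-128052971), an intergenic window nearest MC4R (chr18:57899857-57900056) and an intron of NPHP4 (chr1:6043561-6043760).
ZFP36L2: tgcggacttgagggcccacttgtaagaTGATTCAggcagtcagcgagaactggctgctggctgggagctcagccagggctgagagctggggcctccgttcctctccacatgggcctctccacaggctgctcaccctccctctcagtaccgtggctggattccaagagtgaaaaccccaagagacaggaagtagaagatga
LINC02725: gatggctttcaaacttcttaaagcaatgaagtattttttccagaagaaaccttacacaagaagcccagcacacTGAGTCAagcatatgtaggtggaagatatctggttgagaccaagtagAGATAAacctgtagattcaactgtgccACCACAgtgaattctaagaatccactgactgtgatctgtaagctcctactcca
MC4R: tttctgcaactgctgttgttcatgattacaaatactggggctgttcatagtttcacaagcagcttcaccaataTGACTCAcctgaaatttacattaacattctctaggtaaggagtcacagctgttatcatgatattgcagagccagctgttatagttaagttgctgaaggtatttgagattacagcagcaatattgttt
NPHP4: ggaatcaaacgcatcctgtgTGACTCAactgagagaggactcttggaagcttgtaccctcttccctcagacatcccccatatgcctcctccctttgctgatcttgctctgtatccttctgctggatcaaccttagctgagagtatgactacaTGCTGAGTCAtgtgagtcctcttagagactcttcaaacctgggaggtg
For the wild type libraries they were intergenic windows nearest MON1B (chr16:76980876-76981075), B4GALT6 (chr18:29282504-29282703) and CCDC178 (chr18:31049821-31050020), and an intron of NELL2 (chr12:45283013-45283212).
MON1B: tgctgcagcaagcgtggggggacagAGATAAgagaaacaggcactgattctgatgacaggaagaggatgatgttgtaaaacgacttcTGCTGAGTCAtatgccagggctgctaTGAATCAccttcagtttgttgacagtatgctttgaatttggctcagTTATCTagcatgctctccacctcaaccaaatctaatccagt
B4GALT6: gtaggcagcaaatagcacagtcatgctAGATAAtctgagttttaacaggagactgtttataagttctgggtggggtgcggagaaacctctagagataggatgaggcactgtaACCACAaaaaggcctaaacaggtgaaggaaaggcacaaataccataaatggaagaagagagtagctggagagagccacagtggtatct
CCDC178: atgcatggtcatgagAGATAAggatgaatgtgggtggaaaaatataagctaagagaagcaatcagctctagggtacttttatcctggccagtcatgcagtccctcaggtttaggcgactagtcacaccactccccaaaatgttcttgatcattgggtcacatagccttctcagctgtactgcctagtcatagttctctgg
NELL2: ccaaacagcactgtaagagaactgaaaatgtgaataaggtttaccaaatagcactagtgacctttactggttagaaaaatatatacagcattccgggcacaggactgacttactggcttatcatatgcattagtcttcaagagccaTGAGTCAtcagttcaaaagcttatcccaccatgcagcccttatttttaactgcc
The MON1B window held 5 motif matches, with AP-1 inside an NFE2 match and GATA on both strands. LINC02725 held 1 match each of AP-1, GATA and RUNX, and the CCDC178 window held a single GATA match. No CTCF motif was found in these 8 windows, which says only that its letters are not there.

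The strongest heterozygous-only region lay near ZFP36L2, a gene for an RNA-binding protein that speeds the decay of AU-rich messages. Its −log10 p was 26.3 and 27.3 in heterozygous replicates 2 and 3, and 3.69 and 4.14 in wild type replicates 1 and 2. The fold enrichment over local background, as the authors' peak caller gave it, was 13.5 and 14.1 against 3.29 and 3.59. The libraries of the 2 genotypes did not overlap, yet a weaker peak was present in wild type cells. In the libraries set aside the value was 7.56 in wild type replicate 3 and 7.99 in heterozygous replicate 1, between the compared genotypes and close to each other.

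The next regions were near PGA5, a pepsinogen gene, at LINC02725, and in an intron of PARD3B, a cell polarity gene. LINC02725 had −log10 p of 19.1 and 16.6 in the heterozygous libraries and no peak at all in wild type replicates 1 and 2. Wild type replicate 3 had 16.2 there and heterozygous replicate 1 had 16.6, as high as the heterozygous libraries. The remaining 6 of the 10 strongest were in introns of CR1L, FAM53B and FNIP2, 168 bp from a start site of the forkhead gene FOXK2, and at a pair of sites on chromosome 11 between LINC02725 and ETS1. FAM53B had 18.3 and 14.3 in the heterozygous libraries, 4.51 and 4.99 in wild type replicates 1 and 2, and 17.9 in wild type replicate 3. All 10 were among the strongest 50000 peaks of wild type replicate 3 and of heterozygous replicate 1. Homozygous replicates 1, 2 and 3 had 3, 5 and 6 of the 10.

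The strongest wild-type-only region was nearest MON1B, a vesicle trafficking gene, and 243758 bp from its start site. Its −log10 p was 26.9 and 30.2 in wild type replicates 1 and 2 and 3.85 in heterozygous replicate 3, with no peak in heterozygous replicate 2. It was 3.28 in wild type replicate 3, with no peak in heterozygous replicate 1, and 9.92, 5.98 and 10.8 in the homozygous libraries. The library labelled wild type replicate 3 was therefore at the heterozygous level here, and the homozygous libraries were above it.

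NELL2, which encodes a secreted protein with EGF-like repeats, had an intronic region at 29.7 and 22 in wild type replicates 1 and 2. Heterozygous replicate 3 had 2.82 and replicate 2 had no peak, while homozygous replicates 1, 2 and 3 had 19.9, 8.92 and 37.5. CCDC178, a coiled-coil gene, was the reverse case: 24.4 and 22.7 in wild type replicates 1 and 2, 5.31 in wild type replicate 3, and no peak in any heterozygous or homozygous library. Others of the 10 were nearest ARAP2 (1875328 bp away), B4GALT6 (a lactosylceramide synthase gene), HSD17B12, TSPAN5 and UGT2B11, or in an intron of the kinase gene CAMK2D. Of these, only HSD17B12 was as strong in wild type replicate 3 (20.4) and heterozygous replicate 1 (21.3) as in wild type replicates 1 and 2 (20.1 and 24.3). Of the 10 wild-type-only regions, wild type replicate 3 had 7 and heterozygous replicate 1 had 4 among their strongest peaks. Homozygous replicates 1, 2 and 3 had 9, 8 and 9.

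**Figure D1:**
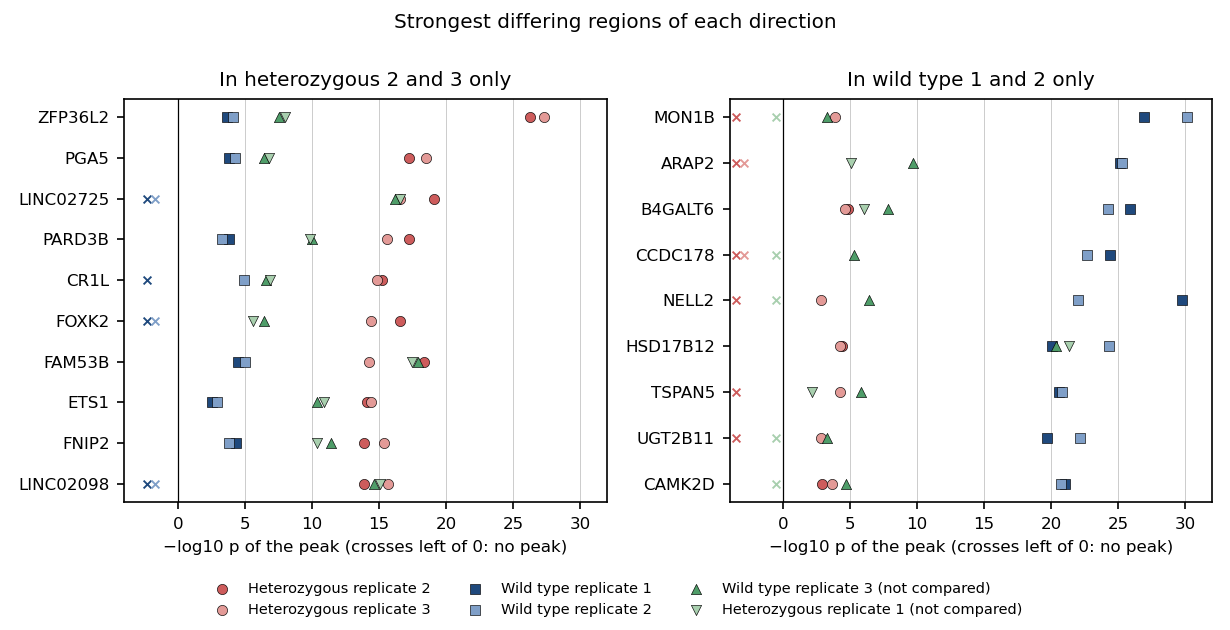
The 10 strongest heterozygous-only regions and 9 of the 10 strongest wild-type-only regions, with the −log10 p of the highest peak of the full list in 6 libraries on the horizontal axis and a row per region, named by its gene or the nearest start site. Crosses left of 0 mark libraries with no peak; in the left panel wild type replicate 3 and heterozygous replicate 1 lie between 5.64 and 17.9, above wild type replicates 1 and 2 in every row.

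Over all differing regions the libraries set aside did not divide by genotype. Among the 5198 heterozygous-only regions, 48.5% were in the strongest peaks of wild type replicate 3 and 48.3% in those of heterozygous replicate 1. Of the 8102 wild-type-only regions, 25.6% were in wild type replicate 3 and 23.7% in heterozygous replicate 1. For regions of all 4 libraries the shares were 94.0% and 93.9%. Counted region by region, 2273 heterozygous-only regions were in both of these libraries, 2438 in neither, 237 only in heterozygous replicate 1 and 250 only in wild type replicate 3. For wild-type-only regions the counts were 1628, 5733, 293 and 448. These libraries share intervals, so they are not independent of each other. When both were added to their labelled genotypes, 232 regions were in 3 of 3 heterozygous and 0 of 3 wild type libraries, and 440 were the reverse.

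Homozygous libraries had 29.7, 27.5 and 32.3% of heterozygous-only regions and 28.3, 26.4 and 31.2% of wild-type-only regions, so both directions were found there about equally often. All 3 homozygous libraries had 638 heterozygous-only regions (12.3%) and 1088 wild-type-only regions (13.4%).

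**Figure D2:**
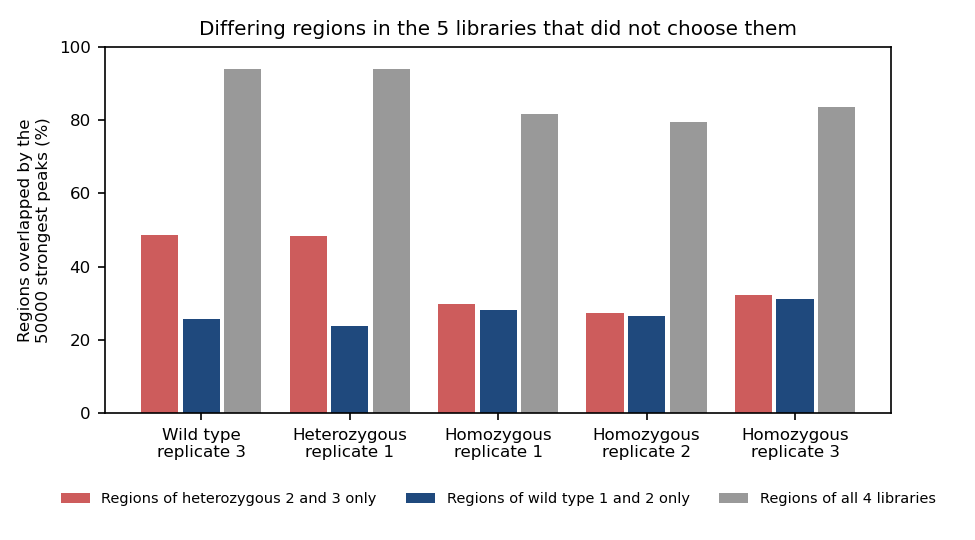
Percentage of heterozygous-only, wild-type-only and shared regions overlapped by the 50000 strongest peaks of each of the 5 libraries that took no part in choosing them. The heterozygous-only bars stand at 48.5% and 48.3% in wild type replicate 3 and heterozygous replicate 1, against 25.6% and 23.7% for wild-type-only regions, and all 3 homozygous libraries have both kinds at 26.4 to 32.3%.

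The contrast was wider among strong regions. Among the 34 heterozygous-only regions with a lowest percentile of 80 or more, 34 were in wild type replicate 3 and 33 in heterozygous replicate 1, against 12, 15 and 16 in the homozygous libraries. Among the 96 wild-type-only regions of that strength, 46 were in wild type replicate 3 and 39 in heterozygous replicate 1, against 75, 70 and 69 in the homozygous libraries. Below the 20th percentile, 35.7% of heterozygous-only and 18.8% of wild-type-only regions were in wild type replicate 3. Most differing regions were weak: the median lowest percentile was 24.4 for heterozygous-only and 23.4 for wild-type-only regions, and 53.4 for shared regions.

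**Figure D3:**
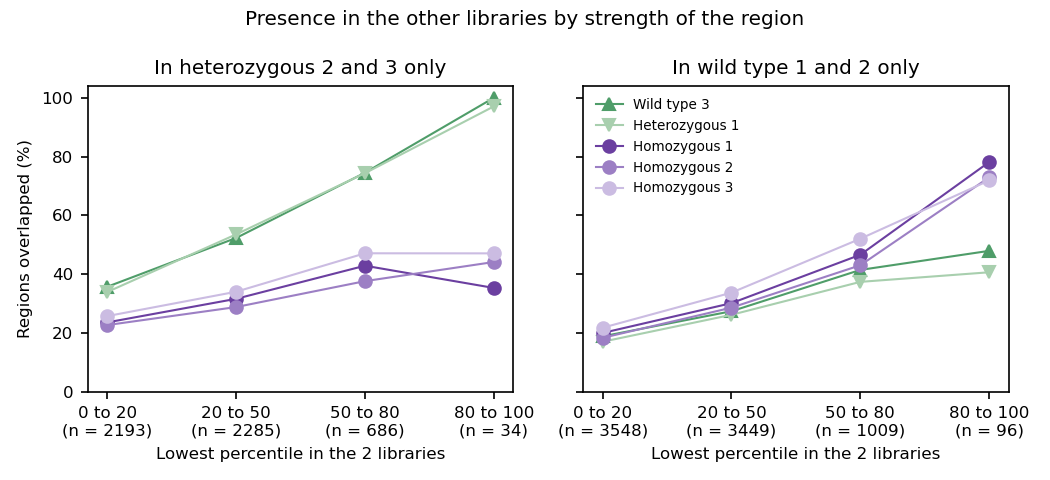
Percentage of differing regions overlapped by the strongest peaks of the other 5 libraries, in 4 ranges of the lowest percentile in the 2 libraries that have the region, with the number of regions under each range. In the top range the heterozygous-only regions reach 100% in wild type replicate 3 and at most 47.1% in the homozygous libraries, while wild-type-only regions reach 47.9% and at least 71.9%.

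A region absent from the strongest peaks often had a weaker one. A peak of lower rank was found in both wild type libraries at 2800 heterozygous-only regions (53.9%), and no peak in either at 1422 (27.4%). Both heterozygous libraries had a weaker peak at 2491 wild-type-only regions (30.7%), and neither had one at 3380 (41.7%). The full lists differ in length, with 137731 and 129196 intervals on these chromosomes in the heterozygous libraries and 143313 and 194020 in the wild type libraries. The longer wild type lists can hold more weak peaks, and the part of list length in these shares was not tested. The −log10 p at rank 50000 was 4.83 and 4.80 in the heterozygous libraries and 4.88 and 5.02 in the wild type libraries.

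Among the 4 compared libraries, replicates of a genotype were more alike than libraries of different genotypes. The Jaccard index, which is the length of the overlap of a pair of lists as a share of their union, was 0.535 for the heterozygous pair, 0.691 for the wild type pair and 0.450 to 0.465 across genotypes. The wild type pair shares identical intervals, which bears on its index and on the larger count of wild-type-only regions: 23.5% of those had an interval identical in both libraries, against 3.19% of heterozygous-only regions. Without such regions, 6201 wild-type-only and 5032 heterozygous-only regions were left. Wild type replicate 3 had an index of 0.472 and 0.489 with the other wild type libraries and 0.491 and 0.493 with heterozygous replicates 2 and 3. The highest index of these 6 libraries, 0.793, was between wild type replicate 3 and heterozygous replicate 1, which share intervals.

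Differing regions were mostly distant from genes' starts. Within 1 kb of a protein-coding start site lay 7.45% of heterozygous-only regions (95% Wilson interval 6.76 to 8.19%, counting error only), 5.18% of wild-type-only regions (4.72 to 5.69%) and 28.6% of shared regions. The median GC content was 46.8%, 45.4% and 51.6%, and the median width 517, 504 and 871 bp. The start-site share was 19.5 and 19.6% of the strongest peaks in the heterozygous libraries and 19.2 and 19.3% in the wild type libraries, and 19.6% in wild type replicate 3.

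Motifs were then counted in 500 bp around each region's midpoint. Wild-type-only regions held GATA motifs more often, in 36.9% against 28.4% of heterozygous-only regions, and AP-1 motifs in 23.8% against 18.7%. GATA factors drive the erythroid programme, and AP-1 joins FOS and JUN proteins at inducible enhancers. Heterozygous-only regions more often held CTCF, in 4.37% against 2.81%, and RUNX motifs, in 36.2% against 32.9%. Shares of ETS motifs (CCGGAAG) were alike at 2.87 and 2.70%. Regions are not replicates, so these shares carry no test. With 100000 peaks per library the differences, heterozygous-only minus wild-type-only, shrank from −8.51 to −5.56 points for GATA, from −5.15 to −1.66 for AP-1, from 1.55 to 0.583 for CTCF and from 3.26 to 0.753 for RUNX.

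Away from start sites the same order held. Over 1 kb from a start site, GATA stood in 29.4% of 4811 heterozygous-only regions (28.1 to 30.7%) and in 37.8% of 7682 wild-type-only regions (36.8 to 38.9%). The same search 2 kb downstream found GATA at 29.4% and 32.2%, so in heterozygous-only regions the motif was at its background. AP-1 stood in 19.2% (18.1 to 20.4%) and 24.1% (23.2 to 25.1%), over backgrounds of 15.1 and 15.4%. CTCF stood in 4.49% (3.94 to 5.11%) and 2.84% (2.49 to 3.23%), over backgrounds of 0.270 and 0.195%, and in 8.11% of shared regions. The KLF (CCACACCC) and TEAD (ACATTCC) shares differed by less than their intervals, at 4.84 and 5.12% and at 6.73 and 6.96%.

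**Figure D4:**
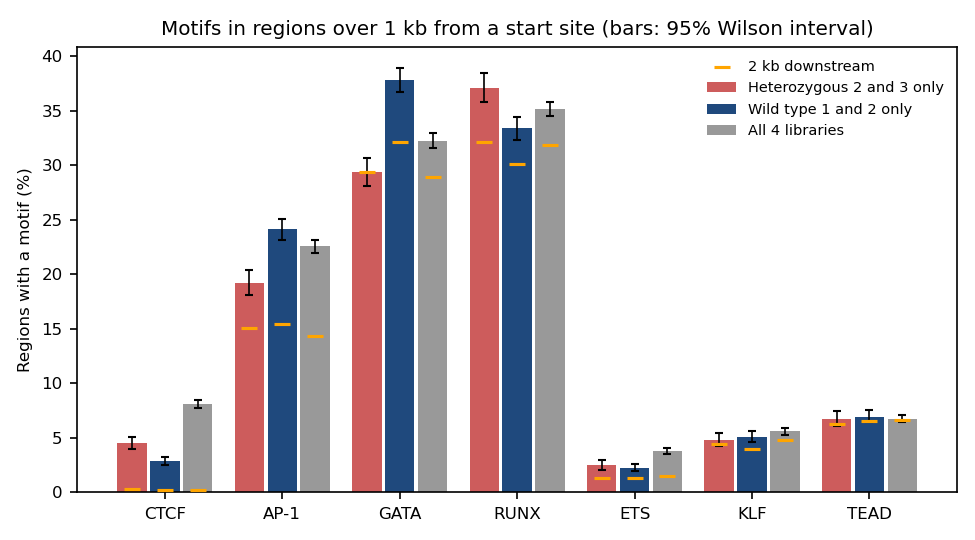
Percentage of regions over 1 kb from a start site that hold each of 7 motifs in 500 bp, for heterozygous-only, wild-type-only and shared regions, with 95% Wilson intervals and, as short orange lines, the share 2 kb downstream. GATA reaches 37.8% in wild-type-only regions and stays at its background of 29.4% in heterozygous-only regions.

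Whole libraries had the same order, but their strongest peaks include the differing regions, so these shares are not independent of the counts above. GATA motifs lay in 27.4 and 27.2% of the strongest peaks of the heterozygous libraries and in 29.5 and 29.3% of those of wild type replicates 1 and 2. AP-1 motifs lay in 18.5 and 18.4% against 19.6 and 19.9%, and RUNX motifs in 31.2 and 31.3% against 30.6 and 30.7%. None of these pairs overlapped. Wild type replicate 3 had 27.2% GATA, 18.7% AP-1 and 31.1% RUNX, nearer to the heterozygous libraries for all 3 motifs. CTCF shares overlapped, at 5.12 and 5.01% in the heterozygous and 4.94 and 5.01% in the wild type libraries.

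Motif shares depended on which differing regions were taken. The 2273 heterozygous-only regions found in both libraries set aside had CTCF at 5.46%, and the 1628 wild-type-only regions found in both had 5.47%. The 2438 and 5733 regions found in neither had 3.53% and 2.08%. GATA stayed higher in wild-type-only regions in both subsets, at 31.3% against 27.8% and at 38.7% against 29.3%.

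Among the 27379 regions of all 4 libraries, strength was compared by percentile. A region was called shifted when the lowest percentile of one genotype was at least 10 points above the highest of the other. The heterozygous libraries were higher at 3264 regions (11.9%) and the wild type libraries at 3157 (11.5%). The widest gap towards the heterozygous libraries, 74.5 points, was found both in an intron of PIP4K2A, a phosphoinositide kinase gene, and in a region nearest PAX1, a paired box gene. Percentiles were 87.3 and 91.9 against 6.51 and 12.7 at PIP4K2A, and 87.3 and 95.2 against the same wild type values at PAX1. A region near CTSD, the gene of the lysosomal protease cathepsin D, had 82.9 and 89.6 against 6.51 and 12.7. At PIP4K2A, PAX1 and CTSD, −log10 p in wild type replicate 1 was 4.88. That is its value at rank 50000, where 8200 peaks were tied and 6508 kept. A region 672 bp from a start site of NR3C2, the mineralocorticoid receptor gene, had 85.3 and 88.8 against 17.0 and 6.16. A region in an intron of APLF, a DNA repair gene, completed the 5 widest.

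Towards wild type the widest gap was again near NELL2, 51149 bp from its start site, at percentiles of 97.8 and 97.3 against 11.3 and 11.1. Its −log10 p was 24.6 and 24.7 in wild type replicates 1 and 2 and 4.29 in wild type replicate 3, so this wild type library was below both heterozygous libraries, at 4.99 and 4.95. An intergenic region nearest CENPC, a kinetochore gene, lay 244779 bp from its start site. Another lay 8868 bp from a start site of FERMT2, the gene of kindlin-2. These and a region in an exon of SETBP1 had wild type percentiles of 87.3 to 96.5 against 4.13 to 11.3. The last of the 5 was in an intron of the phosphorylase kinase gene PHKB. At all 5, −log10 p was 4.98 or 4.99 in heterozygous replicate 2 and 4.95 in replicate 3. These lie just above the values at rank 50000, 4.83 and 4.80. At SETBP1 and PHKB, −log10 p in wild type replicate 3 was 13.9 at both, and 9.24 and 13.2 in heterozygous replicate 1.

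Promoters were compared in the same way, taking for each gene the highest percentile of a peak with its summit within 1 kb of a start site, and 0 where none of the strongest peaks was there. Of 9965 promoters with a peak, 1003 (10.1%) were higher in the heterozygous libraries and 842 (8.45%) in the wild type libraries. The widest gaps towards the heterozygous libraries were at SMAD6, an inhibitor of BMP signalling, DUSP13, a phosphatase gene, ELF5, an ETS factor gene, WNT7A and the potassium channel gene KCNG3. SMAD6 had percentiles of 89.2 and 81.1 against 0 in both wild type libraries, and 70.7 in wild type replicate 3. WNT7A had 73.1 and 76.2 against 0, with 23.5 in wild type replicate 3, 31.2 in heterozygous replicate 1 and 0 in the homozygous libraries. The widest gaps towards wild type were at C1orf87, the zinc finger gene ZNF264, RNF215, VWC2L and the cilia gene CFAP161. At C1orf87, ZNF264 and RNF215 the wild type percentiles were 82.6 to 88.3, and both heterozygous libraries, wild type replicate 3 and heterozygous replicate 1 were at 0.

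The libraries set aside fell on both sides at called promoters. Of the 1003 higher in heterozygous cells, wild type replicate 3 was nearer to the heterozygous mean at 560 (55.8%) and heterozygous replicate 1 at 547 (54.5%). Of the 842 higher in wild type cells, wild type replicate 3 was nearer to the heterozygous mean at 466 (55.3%) and heterozygous replicate 1 at 468 (55.6%).

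Lists of genes were read against the shares over all genes. Of 14328 genes, 9965 had a promoter peak, and of these 10.1% were higher in heterozygous and 8.45% in wild type libraries. Among genes of cohesin and its regulators, 10 of 12 had a promoter peak, 1 was higher in heterozygous and 2 in wild type libraries. MAU2, whose product helps load cohesin on DNA, had percentiles of 87.5 and 85.1 against 73.2 and 72.3, with 81.0 in wild type replicate 3. STAG1, the paralogue of STAG2, had 79.9 and 73.9 against 91.6 and 93.6. WAPL, which releases cohesin, had 77.1 and 75.1 against 87.3 and 89.3. Wild type replicate 3 was at 76.7 for STAG1, between the heterozygous values, and at 90.3 for WAPL, above all 4. Homozygous replicates 1, 2 and 3 were at 99.2, 90.2 and 95.3 for STAG1, so they were not at its heterozygous level. They were at 88.2, 59.7 and 74.8 for WAPL and at 77.4, 82.4 and 95.9 for MAU2. CTCF overlapped between the genotypes, at 85.9 and 84.0 against 60.4 and 84.1, and so did SMC3, at 78.9 and 84.9 against 77.0 and 83.2. PDS5A and ESCO1 were 1.72 and 0.254 points apart between their closest libraries, under the 10 points of a call.

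Of 21 red cell genes, 19 had a promoter peak, 2 were higher in heterozygous and 3 in wild type libraries. TFRC, the transferrin receptor that brings iron into the cell, had 97.9 and 97.7 against 67.7 and 69, with 89.8 in wild type replicate 3 and 87.8 in heterozygous replicate 1. HBE1, embryonic epsilon globin, had 74.2 and 93.0 against 61.4 and 56.9. Its annotation includes long transcripts that it shares with HBG2, so that peaks there cannot be given to either gene. HBZ, embryonic zeta globin, had 0 in both heterozygous libraries against 20.7 and 38.5, and 0 in wild type replicate 3 and the homozygous libraries too. GYPC, a glycophorin, had 27.9 and 44.9 against 67.4 and 63.3, and the heme synthesis gene UROS 31.4 and 44.9 against 59.6 and 63.0.

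Wild-type-only regions lay in or within 10 kb of 10 of the 21 red cell genes and heterozygous-only regions at 4. Over all 14328 genes the shares were 24.5% and 19.2%. HBG2 and HBE1 counted the same 3 wild-type-only and 2 heterozygous-only regions, because their annotated bodies overlap. Those bodies extend to olfactory receptor genes such as OR51B4 and OR52D1. The counts were not adjusted for gene length. The strongest was in an intron of SLC4A1, the band 3 anion exchanger, at wild type percentiles of 77.5 and 83.8, with a GATA motif, and it was among the strongest peaks of wild type replicate 3, heterozygous replicate 1 and 2 of the 3 homozygous libraries. SPTB, beta spectrin, had 2 wild-type-only regions and 1 heterozygous-only region. Near FECH, which inserts iron into heme, a heterozygous-only region with a GATA motif had 66.1 and 50.7.

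Of 13 erythroid regulator genes, 12 had a promoter peak and 0 were called in either direction. TAL1, a basic helix-loop-helix factor, had 98.9 and 75.1 against 84.7 and 85.0. LMO2, its bridging partner, had 0 and 57.8 against 45.4 and 42.2, and GATA2 had 2.47 and 70.6 against 66.4 and 25.2. The heterozygous replicates thus differed by more than the genotype means, and at GATA2 the wild type replicates did too. KLF1 had no strongest peak at its start sites in any of the 9 libraries.

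Of 18 megakaryocyte and platelet genes, 8 had a promoter peak, 3 were higher in heterozygous and 1 in wild type libraries. NRGN, neurogranin, had 99.2 and 98.5 against 84.7 and 88.3. THBS1, thrombospondin, had 62.2 and 37.8 against 6.51 and 0, and 0 in the other 5 libraries. ITGB3, the integrin beta 3 chain, had 38.2 and 11.1 against 0. Its partner ITGA2B, the alpha IIb chain, went the other way with 50 and 51 against 71.7 and 80.1. Wild-type-only regions lay at 9 of the 18 genes and heterozygous-only regions at 2, against 24.5% and 19.2% of all 14328 genes. In the same order the counts were 8 and 6 of 15 adhesion and mesenchymal genes and 2 and 3 of 13 erythroid regulators. They were 5 and 6 of 19 ETS family genes and 2 and 3 of 14 AP-1 and MAF genes. Cohesin genes had 2 and 3 of 12, and so had widely expressed genes. These counts were not adjusted for gene length. Megakaryocyte and platelet genes with wild-type-only regions included FLI1, with 3, ITGB3, with 2, and VWF, PLEK, ERG, RUNX1, TUBB1 and ITGA2B, with single regions. The RUNX1 region lay inside the annotated gene but 439312 bp from the closest RUNX1 start site.

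Of 19 ETS family genes, 15 had a promoter peak, 3 were higher in heterozygous and 1 in wild type libraries. ELF5 had 78.2 and 75.4 against 0, with 85.8 in wild type replicate 3, 88.0 in heterozygous replicate 1 and 74.8 to 86.6 in the homozygous libraries. Wild type replicates 1 and 2 were thus the only libraries of the 9 without a strongest peak at the ELF5 promoter. ETV6, a repressor often rearranged in leukaemia, had 58.2 and 80.8 against 15.1 and 22.9, with 36.7 in wild type replicate 3. ELF3 had 23.1 and 24.6 against 0, and ELF1 had 68.2 and 65.0 against 89.6 and 89.2. ETS1 had 5 heterozygous-only regions in or near it and 1 wild-type-only region, and its promoter was strong throughout, at 98.4 and 99.1 against 99.6 and 99.4. The strongest of the 5, at chr11:128452726-128453481 with percentiles of 51.5 and 55.8, was among the strongest peaks of all 5 other libraries.

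Of 14 AP-1 and MAF genes, 13 had a promoter peak, 2 were higher in heterozygous and 0 in wild type libraries. JDP2, an AP-1 repressor, had 11.3 and 71.7 against 0. JUN was at 95.3 and 98.4 against 98.6 and 97.4. Of 15 adhesion and mesenchymal genes on these chromosomes, 13 had a promoter peak and 0 were called. ZEB2, a repressor of epithelial genes, had 3 heterozygous-only intronic regions and 1 wild-type-only region, and YAP1 had 1 and 3.

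**Figure D5:**
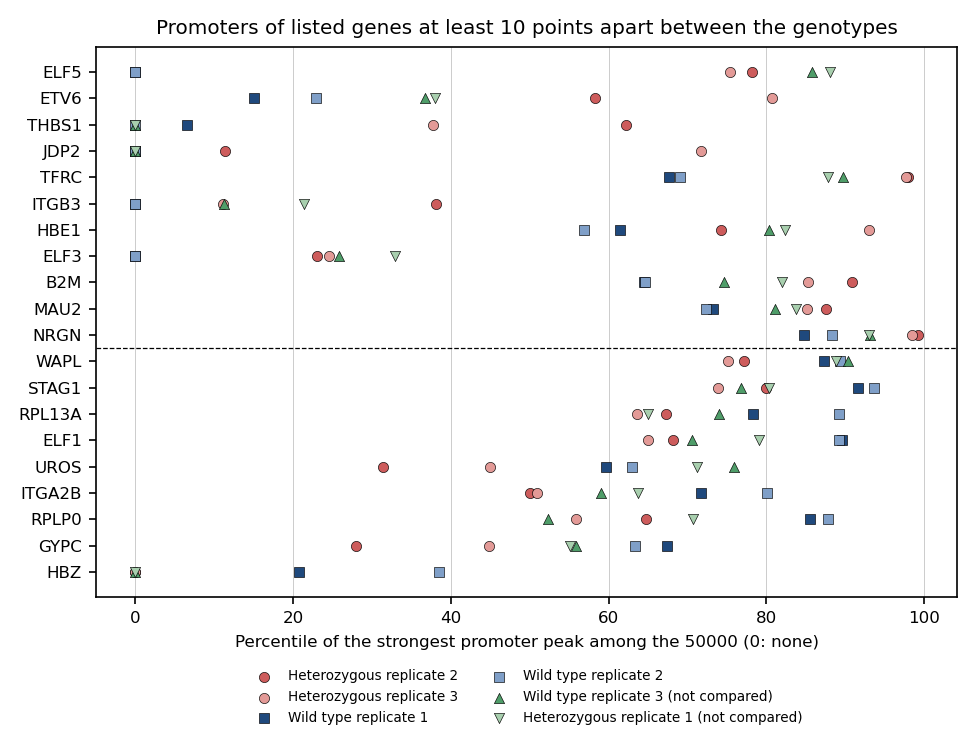
Percentile of the strongest promoter peak, on the horizontal axis, for called genes of the pathway and housekeeping lists, in the 4 compared libraries and the 2 set aside. Above the dashed line both heterozygous libraries lie at least 10 points above both wild type libraries, and below it the reverse; wild type replicate 3 lies at 85.8 for ELF5 and at 76.7 for STAG1, on the heterozygous side of both.

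Genes that most cells use also differed in places. Of 12 widely expressed genes, B2M was higher in heterozygous libraries, at 90.9 and 85.3 against 64.4 and 64.7, and RPLP0 and RPL13A were higher in wild type libraries. RPLP0 had 64.8 and 55.8 against 85.5 and 87.8. The K562 markers were open, with a promoter peak at 8 of 9 and KLF1 the one without, and in the compared libraries 6 to 8 had one. B cell markers had 0 of 3, T cell markers 1 of 4, granulocyte or monocyte markers 1 of 5, epithelial markers 2 of 4 and fibroblast markers 2 of 3. CD3D, a T cell receptor chain, had 0 in both heterozygous libraries against 65.0 and 76.6, and 45.4 to 67.0 in the other 5. LYZ, lysozyme, had 38.2 and 0 against 62.6 and 59.7, and the fibroblast gene DCN 49.6 and 77.0 against 0 and 24.6. The part of other cell types in the results was not tested.

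Chromosome shares of the 50000 strongest peaks differed between the genotype means by at most 0.235 percentage points, at chromosome 14, where the shares were 3.66 and 3.55% against 3.89 and 3.79%. With 100000 peaks per library the heterozygous mean was 1.06 points higher at chromosome 1, where the genotypes did not overlap, and 0.799 points higher at chromosome 2. Wild-type-only regions outnumbered heterozygous-only regions in 169 of 203 windows of 10 Mb with at least 100 regions. This follows the shares over all regions, 9.9% against 6.35%. The widest difference was on chromosome 13 from position 80000001 to 90000000, where 40 of 189 regions were wild-type-only and 4 heterozygous-only.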

How the data were processed

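ATAC-seq peak lists of 9 K562 libraries were used, 4 of them for the comparison. The submitters' processing notes name cutadapt, Bowtie2 2.2.9, Picard and MACS2 2.1.0 and the build hg19/GRCh37, with no settings, and a shift of reads for Tn5 is not given in the sources used here. The authors deposited 1 list per library, so peaks were called on single libraries, with a fold enrichment (a linear ratio), a −log10 p-value and a −log10 q-value for each peak. Whether the deposited summit offset and display score carry more is not given, and only the offset was used. Intervals were 500 bp windows around summits, and 17.9 to 19.7% of those used were joined windows with averaged values, which can lower the rank of broad peaks. The lists hold no counts, so depth is unknown and no model was fitted per region.

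Peaks were ranked by −log10 p with Python 3.11.15 and pandas 2.3.3. Ties at rank 50000 (143 to 8200 peaks, most in wild type replicate 1) were ordered by fold enrichment, then at random. Genes came from GENCODE 44 on GRCh37, and 0 intervals ran past a chromosome's end. CTCF was searched as its consensus, and all motifs on both strands. Intervals on shares cover counting error only. The scripts were tested on simulated lists.

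The members, gene lists and motifs were chosen with earlier results of these data known. Named were the 10 differing regions of each direction with the highest lower percentile, the 5 shared regions and 5 promoters with the widest gaps, and listed genes with a called promoter or a differing region in the gene or within 10 kb. Values of other listed genes, such as CTCF, JUN and TAL1, were named after they were seen. A few regions and genes chosen by these rules are not reported here. Chromosomes 5 to 9, X and Y were not compared.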

Additional observations from a re-analysis of the deposited data

How the results depend on the processing

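The counts of heterozygous-only and wild-type-only regions followed the number of peaks taken: 2312 and 2844 with 20000 peaks per library, 12522 and 21602 with 100000, 15634 and 47561 with full lists, and 2019 and 3649 with peaks of −log10 q of at least 5. They were 1422 and 3380 when no peak of the full list was allowed in the other genotype, and 8531 and 14345 with intervals of at most 500 bp. With wild type replicate 3 and heterozygous replicate 1 added they were 232 and 440. Without heterozygous replicate 2 or 3, 1 library alone stood for its genotype, and heterozygous-only regions numbered 14870 and 15002; over the 4 libraries left out in turn the counts ranged from 6312 to 15002 and, for wild-type-only regions, from 10861 to 13963. Wild-type-only regions outnumbered heterozygous-only regions in all of these settings except those without 1 heterozygous library. The CTCF difference of 1.55 points was 0.583 with 100000 peaks, where GATA (−5.56), AP-1 (−1.66) and RUNX (0.753) differences were also smaller than with 50000 (−8.51, −5.15 and 3.26), and the start-site difference of 2.26 points was 5.32 with 20000. The Jaccard difference within minus between genotypes, 0.156, was 0.148 with 20000 peaks, 0.175 with 100000 and 0.193 with full lists. With a gap of 20 points, 1503 and 1481 shared regions and 452 and 411 promoters were called higher and lower in the heterozygous libraries, and with 5 points 1336 promoters were called lower. The chromosome shares changed sign at chromosome 3 (0.165 with 20000 peaks and 0.494 with 100000) and, with 100000 peaks, at chromosomes 10 (−0.0345), 11 (−0.019) and 15 (−0.096), and the widest difference was then 1.06 at chromosome 1; the cause was not tested. Keeping all tied peaks and leaving out identical intervals were chosen after seeing the data. No paired analysis was possible because heterozygous replicates 2 and 3 and wild type replicates 1 and 2 share 1 replicate number. Depth is unknown, 2 libraries stand for each genotype, and each genotype is 1 line.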

Other observations

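Differing regions came in clusters, sought within 200 kb after their values were seen. Between RGS1 and RGS13, genes of regulators of G protein signalling, 8 of 19 regions were heterozygous-only and 2 wild-type-only, and the homozygous libraries had 0, 1 and 0 of the 8. On chromosome 11, from LINC02725 towards ETS1, 7 of 17 regions were heterozygous-only, wild type replicate 3 and heterozygous replicate 1 both had all 7, and the homozygous libraries had 0, 2 and 0.

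The highest counts of wild-type-only regions were around ZSWIM2, with 11 of 24 regions, and in a stretch of chromosome 3 without a protein-coding gene, with 11 of 13. Wild type replicate 3 had 1 and 2 of these, and homozygous replicate 3 had 3 and 5. At the kinase gene CAMK2D, 9 of 14 regions were wild-type-only, 0 were shared by the 4 compared libraries, and wild type replicate 3 and heterozygous replicate 1 had 1 each.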
